A study of Mus musculus with 16 samples.

Results

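The untagged immunoprecipitation (IP) is the background of a translating ribosome affinity purification (TRAP) experiment on mouse retina: an HA antibody and protein G beads were applied to retinal lysates in which no ribosome carried the HA tag. The 4 libraries described here, of 16 in the series, are the 2 ctrl IP libraries and the 2 ctrl input libraries, chosen by their labels. Each ctrl mouse carried Opn4-Cre, which expresses Cre in intrinsically photosensitive retinal ganglion cells (ipRGCs), and no Rpl22HA allele. The Rpl22HA IP and Rpl22HA input libraries (2 of each), set beside them at the end, came from mice with Opn4-Cre and the HA-tagged ribosomal protein allele Rpl22HA. All were retinas of mice at postnatal day 60, homogenised with cycloheximide, and the input was 1.5% of the same lysate kept before the IP. The labels give every library as pooled male and female, whereas the study's methods combined the retinas of 1 animal. The lysates were of whole retina, so every RNA in the ctrl IP came from cells without the tag. The study's text does not state how much RNA the beads held, so each value is a share of its library, and higher or lower means relative to the rest of that library.

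TRAP pulls down ribosomes of a chosen cell type through a tagged ribosomal protein, and the mRNAs they translate come down with them. RNA can also come down without any tag, for example by binding to the beads or the antibody. An IP on untagged tissue measures that background, which a tagged sample carries beside the RNA of its tagged cells.

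The ctrl IP libraries held 10141659 and 14512132 transcript counts and the ctrl input libraries 2332612 and 7446108, so the inputs, ctrl input replicate 1 most of all, limited the precision. Each gene was represented by its transcript with the highest mean count over the 4 libraries, and 14090 of 47451 symbols passed the filter on low counts. Replicates correlated at 0.970 (ctrl IP) and 0.969 (ctrl input) on the log2 scale across these genes. Genes that define rods, such as Gnat1, were abundant in all 4 libraries. Counts on 4 Y-linked genes were 7 and 0 in the ctrl IPs and 0 and 0 in the ctrl inputs, against 318 and 348 in the Rpl22HA IPs and 140 and 130 in the Rpl22HA inputs, although all carry the same label for sex. Where nothing else is said, adjusted p-values are from edgeR. They rest on the spread between samples, estimated over the ctrl and Rpl22HA libraries together.

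The ctrl IP differed widely from its input. By edgeR's quasi-likelihood test, 3041 genes were higher in ctrl IP (21.6%) and 2177 were lower (15.5%), counted at a Benjamini-Hochberg adjusted p under 0.05 and a fold change over 2. In 10361 genes (73.5%) the normalized levels of the IP and input libraries did not overlap. The median log2 fold change over all tested genes was 0.09. The higher genes took 37.0% and 40.03% of the counts on representative transcripts in the ctrl IPs, against 8.85% and 8.82% in the ctrl inputs. The lower genes took 13.5% and 12.6% in the ctrl IPs, against 39.1% and 40.3% in the ctrl inputs. These shares describe how the genes were chosen and carry no test.

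Leading genes were picked among called genes with a mean count of at least 50 over the 4 libraries and no overlap between IP and input. The 2 furthest above the input were Gm10800 and Gm10801. They are neighbouring predicted models that the annotation gives as protein-coding, with no described role. Gm10800 (mm10 chr2:98666547-98667301, minus strand) had 236 and 854 counts in the ctrl IPs, against 0 and 0 in the ctrl inputs. Gm10801 (chr2:98662237-98664083, plus strand) had 43 and 163 counts in the ctrl IPs, against 0 and 0 in the ctrl inputs. Set against a floor of 3 counts over both inputs, Gm10800 was at least 141-fold higher and Gm10801 at least 26.6-fold higher (adjusted p = 3.2e-07 and 2.06e-05, edgeR). The sequences are shown because the transcripts share much of their text, so that a short read can belong to either. From the GENCODE M21 transcripts, 240 bases of each are given 5′ to 3′, positions 239 to 478 of Gm10800 and 1 to 240 of Gm10801, with capitals where a word of 15 bases also occurs in the other transcript:
Gm10800: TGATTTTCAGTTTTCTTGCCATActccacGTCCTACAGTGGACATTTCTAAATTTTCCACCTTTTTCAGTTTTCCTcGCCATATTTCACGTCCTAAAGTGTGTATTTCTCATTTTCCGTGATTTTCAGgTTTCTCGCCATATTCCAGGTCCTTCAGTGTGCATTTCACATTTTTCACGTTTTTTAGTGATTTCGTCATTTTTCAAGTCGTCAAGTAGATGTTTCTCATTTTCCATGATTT
Gm10801: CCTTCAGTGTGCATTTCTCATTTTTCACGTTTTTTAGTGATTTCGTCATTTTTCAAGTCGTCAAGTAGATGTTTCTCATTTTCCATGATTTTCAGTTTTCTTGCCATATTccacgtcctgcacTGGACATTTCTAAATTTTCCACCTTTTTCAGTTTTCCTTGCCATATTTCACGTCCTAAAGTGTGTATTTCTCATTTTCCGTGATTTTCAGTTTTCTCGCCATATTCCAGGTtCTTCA
Over the whole transcripts 89.1% of the bases of Gm10800 and 77.0% of those of Gm10801 lay in such words. The longest stretch in common ran for 86 bases, and 136 of 624 windows of 37 bases (the read length) in Gm10800 were identical in Gm10801. How the counting divided such reads between the genes is not stated, so the 2 values are best read together. Each transcript also repeats within itself. Shifted by 225 bases, Gm10800 matched itself at 56.3% of positions, and Gm10801, shifted by 231 bases, at 52.7%. An exact search for the 86-base stretch in 21 chromosomes found 2 matches, both near these 2 genes. Inexact copies were not searched for. Whether reads from repeats elsewhere in the genome were counted on these models was not tested, so the values need not reflect 2 coding genes. Both genes also had counts in the Rpl22HA IPs (3.77 and 5.91 CPM, normalized counts scaled to library size, for Gm10800) and none in the Rpl22HA inputs.

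A secreted protease and nuclear proteins came next, with values per library in CPM. Mmp9, a secreted protease that cleaves extracellular matrix (chr2:164948219-164955850), had 801 and 762 CPM in the ctrl IPs, against 3.27 and 3.59 CPM in the ctrl inputs, a log2 fold change of 7.80 ± 0.29 (SE, adjusted p = 3.88e-12). Zfp638, a zinc finger protein of the nucleus that binds nucleic acid (chr6:83914367-83989550), had 2835 and 2979 CPM in the ctrl IPs, against 20.04 and 18.9 CPM in the ctrl inputs (7.23 ± 0.21, adjusted p = 2.42e-13). Ylpm1, a nuclear protein (chr12:84996352-85070515), had 1184 and 1487 CPM in the ctrl IPs, against 7.36 and 9.75 CPM in the ctrl inputs (7.22 ± 0.27). In all 3 the replicates lay close together and the groups were far apart. Together they took 1.08% and 1.10% of the representative counts in the ctrl IPs, against 0.00661% and 0.00700% in the ctrl inputs.

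The last 2 of the 10 by fold change were chromatin regulators. Kmt2a, a histone H3 lysine methyltransferase (chr9:44803355-44881296), had 2362 and 2840 CPM in the ctrl IPs, against 47.45 and 45.7 CPM in the ctrl inputs (5.81 ± 0.28). Atrx, a chromatin remodeller (chrX:105797615-105929403), had 1478 and 1883 CPM in the ctrl IPs, against 35.2 and 29.8 CPM in the ctrl inputs (5.71 ± 0.24). Ranked between these and Ylpm1, Etl4 had 60.01 and 59.3 CPM in the ctrl IPs, against 0 and 1.15 CPM in the ctrl inputs (6.09 ± 0.34). Ranked there too was a pair of single-exon noncoding models inside introns. Gm37941 (chr9:86784547-86786855), within an intron of Snap91, had 223 and 232 counts in the ctrl IPs, against 1 and 1 in the ctrl inputs, a ratio of 94.5 (95% counting interval 26.0 to 783). Gm37181 (chr1:66690630-66692356), opposite an intron of Unc80, had 283 and 480 counts in the ctrl IPs, against 1 and 3 in the ctrl inputs.

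The 10 genes furthest below the input, by the same rule, included secreted proteins, membrane proteins and enzymes of glia and neurons. Clu, a secreted chaperone made by Müller glia (chr14:65968483-65981547), had 31.6 and 32.5 CPM in the ctrl IPs, against 264 and 345 CPM in the ctrl inputs (−3.25 ± 0.18, adjusted p = 2.75e-10). Rlbp1, the retinaldehyde carrier of Müller glia and pigment epithelium (chr7:79374871-79386959), had 40.4 and 29.5 CPM in the ctrl IPs, against 317 and 330 CPM in the ctrl inputs (−3.22 ± 0.19). Slc32a1, the vesicular transporter for GABA and glycine (chr2:158610767-158615748), had 6.50 and 6.625 CPM in the ctrl IPs, against 50.3 and 54.8 CPM in the ctrl inputs (−3.01 ± 0.19). For these 3 the lowest input lay several-fold above the highest IP. The others were Mgst3, a microsomal enzyme of glutathione metabolism (−3.15), Gm20425 (−3.15), Trf, the iron carrier transferrin (−3.14), Chga, a granin of secretory granules (−3.11), Marcksl1, a membrane-bound actin regulator (−3.06), Tubb4a, a neuronal β-tubulin (−3.04), and Cox6a1, a subunit of cytochrome oxidase (−3.02). Gm20425 (chr9:103190208-103230307) and Trf (chr9:103208795-103230444) overlap, so their counts are not independent.

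**Figure D1:**
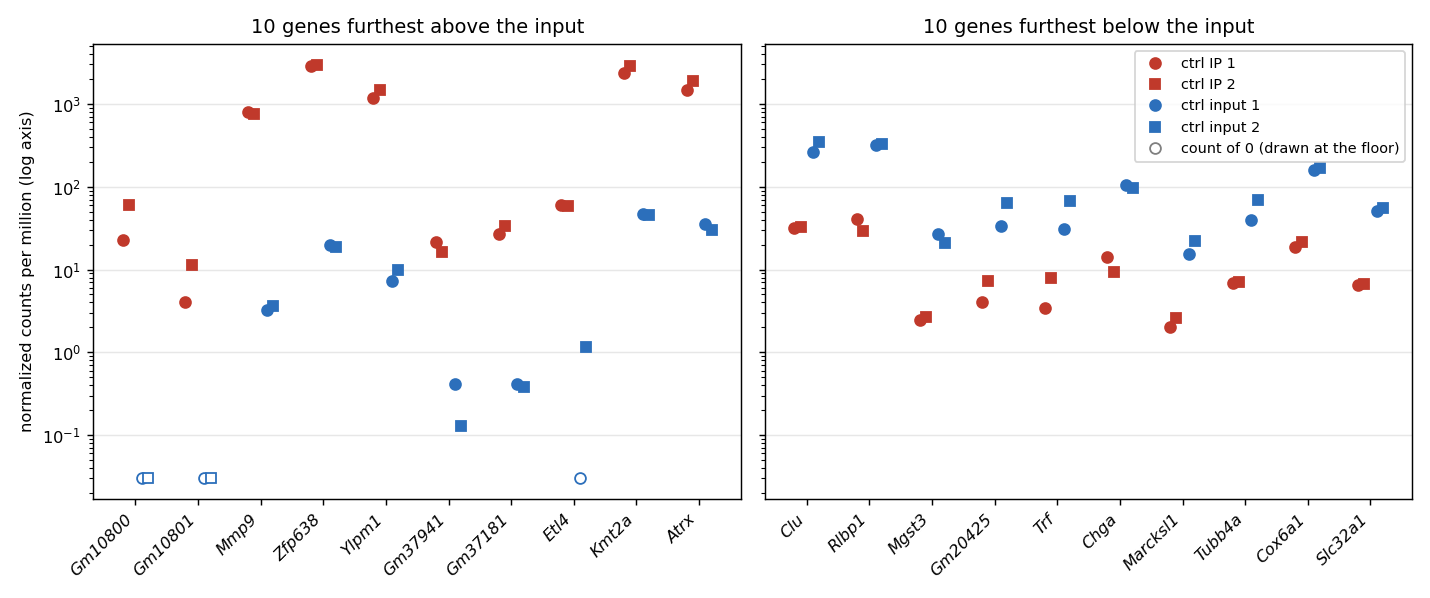
Normalized CPM (log axis) in each ctrl library for the 10 genes furthest above and the 10 furthest below the input among called genes with a mean count of at least 50, IP points in red to the left of input points in blue. Open points mark a count of 0, as for Gm10800 and Gm10801 in both inputs. The IP and input points do not overlap because the genes were picked by that rule.

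Long noncoding RNA stood above protein-coding RNA. Of 1130 tested long noncoding genes 622 were higher in ctrl IP (55.0%) and 34 lower (3.01%), with a median log2 fold change of 1.47. Protein-coding genes were higher in 18.6% and lower in 16.5%, with a median of 0.00. Sense intronic transcripts (20 of 27 higher, median 2.68) and TEC models, single-exon models that GENCODE marks as awaiting experimental evidence (175 of 249 higher, median 2.31), led the long noncoding types. Bidirectional promoter transcripts were higher in 31 of 47, long intergenic RNAs in 155 of 298, processed transcripts in 98 of 192 and antisense RNAs in 142 of 312. Processed pseudogenes, which are copied from spliced mRNAs, went the other way, with 12 of 104 higher and 26 lower (median −0.80). The count of higher long noncoding genes was 313 without ctrl input replicate 2, and 269 with all libraries thinned to the shallowest, where fewer genes could be tested.

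**Figure D2:**
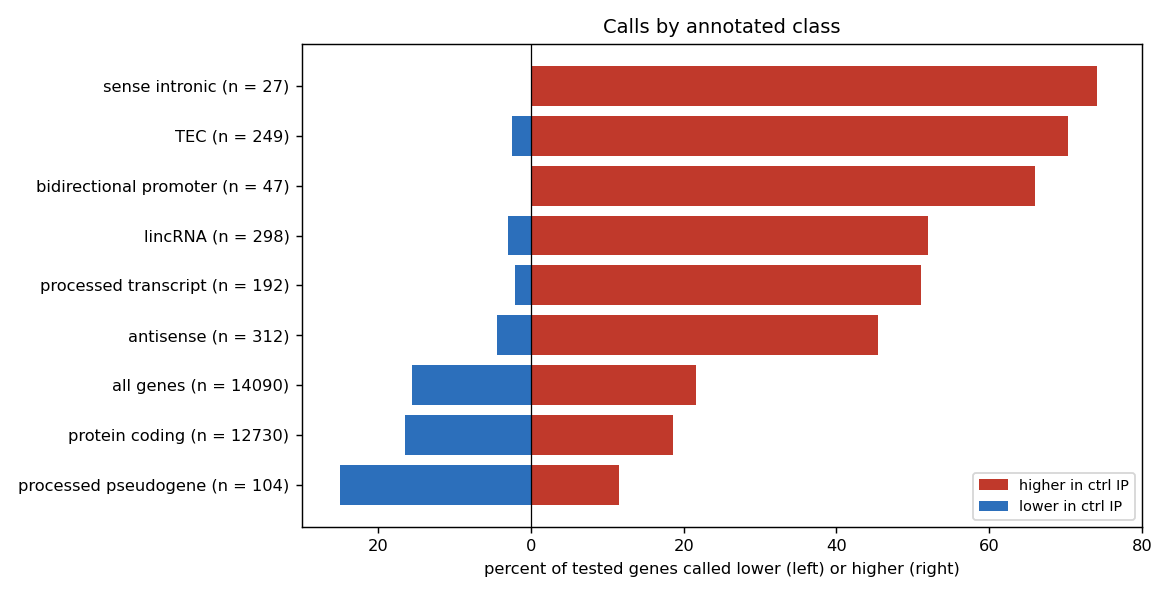
Percent of tested genes called higher (red, to the right) or lower (blue, to the left) in ctrl IP over ctrl input, by annotated class, with the number tested in each. The 6 long noncoding types have between 45.5% and 74.1% higher, against 21.6% of all genes.

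Position within other genes went with these values. Of 141 noncoding genes lying wholly within an intron of a protein-coding gene on the same strand, 123 were higher (87.2%, median 2.96). For the 134 of them whose host gene was tested, the median was 2.93, against 0.36 for the hosts, and 25 hosts were themselves higher. Noncoding genes within an intron on the opposite strand were higher in 35 of 54 (64.8%), those touching an exon on the opposite strand in 67 of 160 (41.9%), and those outside protein-coding genes in 248 of 414 (59.9%). Gm37941 is an example, at 6.48 with its host Snap91, a clathrin assembly protein, at 0.34. Reads of a host intron and of a transcript annotated inside it on the same strand cannot be told apart. Whether strand was used in counting is not stated in the sources used here, so reads of opposite-strand transcripts may be shared with the host too.

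Long noncoding RNAs known to stay in the nucleus were mostly higher: 16 of 19 tested members of a list of 20 were higher and none lower, with a median of 2.36 (2.36 also with Mirg at its bound). Xist, the RNA that coats the inactive X chromosome, had 113 and 172 CPM in the ctrl IPs, against 10.6 and 7.31 CPM in the ctrl inputs (4.08 ± 0.26, adjusted p = 1.88e-09). Other RNAs of the X inactivation centre were also higher, Ftx at 3.23, Tsix at 3.12 and Jpx at 2.39, and Firre, an X-linked RNA that anchors to chromatin, was at 3.17. Tsix is transcribed antisense to Xist, and the 2 share reads if strand was not used.

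Imprinted noncoding RNAs were higher as well, except for 1. Meg3 had 176 and 180 CPM in the ctrl IPs, against 56.5 and 32.5 CPM in the ctrl inputs (2.06 ± 0.26). Rian (1.45), from the same imprinted cluster, Snhg14 (3.16), Airn (3.10) and Kcnq1ot1 (2.22), each an RNA of an imprinted domain, were also higher. Mirg, of the Meg3 cluster, had 18 and 44 counts in the ctrl IPs, against 0 and 0 in the ctrl inputs, at least 8.23-fold higher (adjusted p = 0.000825, and 0.0527 without ctrl input replicate 2). Peg13 was the exception, at −0.44 with no call.

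RNAs of nuclear bodies differed among themselves. Neat1, the scaffold of paraspeckles, had 9.75 and 19.2 CPM in the ctrl IPs, against 2.45 and 5.26 CPM in the ctrl inputs (1.74 ± 0.36, adjusted p = 0.000657). Malat1, an abundant RNA of nuclear speckles, had 2915 and 2528 CPM in the ctrl IPs, against 2854 and 1163 CPM in the ctrl inputs, and was not called (0.44, adjusted p = 0.239). The Malat1 groups overlapped, the 2 inputs differed from each other by more than 2-fold, and its value was 1.23 (called) without ctrl input replicate 1 and −0.069 without ctrl input replicate 2. Miat (2.36), Snhg11 (2.49), Dleu2 (2.22) and Rmst (1.56, adjusted p = 0.109 without ctrl input replicate 2) were higher, and Sox2ot was not called (−0.05).

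The list of small nucleolar RNA hosts and cytoplasmic long noncoding RNAs was higher in 6 of 11 (median 1.19) and lower in 1, Snhg18 (−1.10), which lost its call without ctrl IP replicate 2 or ctrl input replicate 2. Of the 6 higher, Snhg17, Snhg1, Snhg8 and Gas5 were represented by retained-intron transcripts. Snhg1 had 24.8 and 27.3 CPM in the ctrl IPs, against 3.27 and 5.13 CPM in the ctrl inputs (2.51 ± 0.29), and Gas5 was at 1.19 (0.9992, not called, without ctrl input replicate 2). Of 13 small structured RNAs only Rn7sk (−1.33) and Rpph1 (−0.36) passed the filter and neither was called.

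The mitochondrial genome split by gene. Of 10 tested transcripts 4 were higher and 3 lower (median 0.10), and all transcripts with an mt- symbol together took 8.00% and 9.04% of representative counts in the ctrl IPs, against 7.33% and 6.16% in the ctrl inputs. mt-Nd5 had 4956 and 5083 CPM in the ctrl IPs, against 897 and 828 CPM in the ctrl inputs (2.54 ± 0.16, adjusted p = 2e-09). mt-Nd6, a complex I subunit encoded on the opposite strand next to it, had 627 and 783 CPM in the ctrl IPs, against 103 and 79.1 CPM in the ctrl inputs (2.97 ± 0.24). mt-Cytb, of complex III, went the other way, with 2960 and 3946 CPM in the ctrl IPs, against 7438 and 8350 CPM in the ctrl inputs (−1.19 ± 0.21). The groups did not overlap in any of these 3. mt-Nd2 (1.18) and mt-Nd1 (1.01) were also higher, mt-Nd3 (−1.55) and mt-Rnr1 (−1.18) lower. The count of higher transcripts was 2 without ctrl IP replicate 2, and the count of lower ones was 2 without it or without ctrl input replicate 1. With the replicate number as a block the counts were 3 and 2, as mt-Nd1 (0.99) and mt-Rnr1 (−0.89) no longer passed a 2-fold change, and mt-Rnr1 was at 0.072 without ctrl input replicate 1. Separately annotated, 4 of 6 tested mitochondrial tRNAs were higher.

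Among protein-coding genes the length of the coding part ordered the values. Genes with up to 500 coding bases were higher in 8.41% and lower in 30.6% (median −0.55), those with 1501 to 2000 bases in 16.1% and 14.3% (median 0.05), and those with over 5000 bases in 77.8% and 0.533% (median 1.91, 438 of 563 higher). The length outside the coding part also went with the values, mainly in genes with short coding parts. In genes with over 4000 coding bases, 63.9% were higher where the rest of the transcript was up to 500 bases and 71.8% where it was over 3000 bases, and the medians were 1.55 and 1.65. In genes with up to 1000 coding bases these shares were 5.82% and 11.9%, the shares lower were 38.3% and 12.5%, and the medians were −0.77 and −0.08. Within replicate number 1 and within number 2, the median log2 ratio of IP over input in transcripts of up to 1000 bases was −0.91 and −0.66, and in those over 8000 bases 1.12 and 1.31.

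Exon number and GC also went with the values, and both varied with length. Genes with over 30 exons were higher in 67.7%, those with 4 to 6 exons in 10.3% and those with 1 exon in 23.2%. In the 3161 coding genes poorest in GC 27.5% were higher and 9.74% lower, and in the 3214 richest 11.3% and 23.0%, while the median transcript length of these sets was 3950 and 2573.5 bases. Genes are not independent replicates, and these shares are a description with no test.

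**Figure D3:**
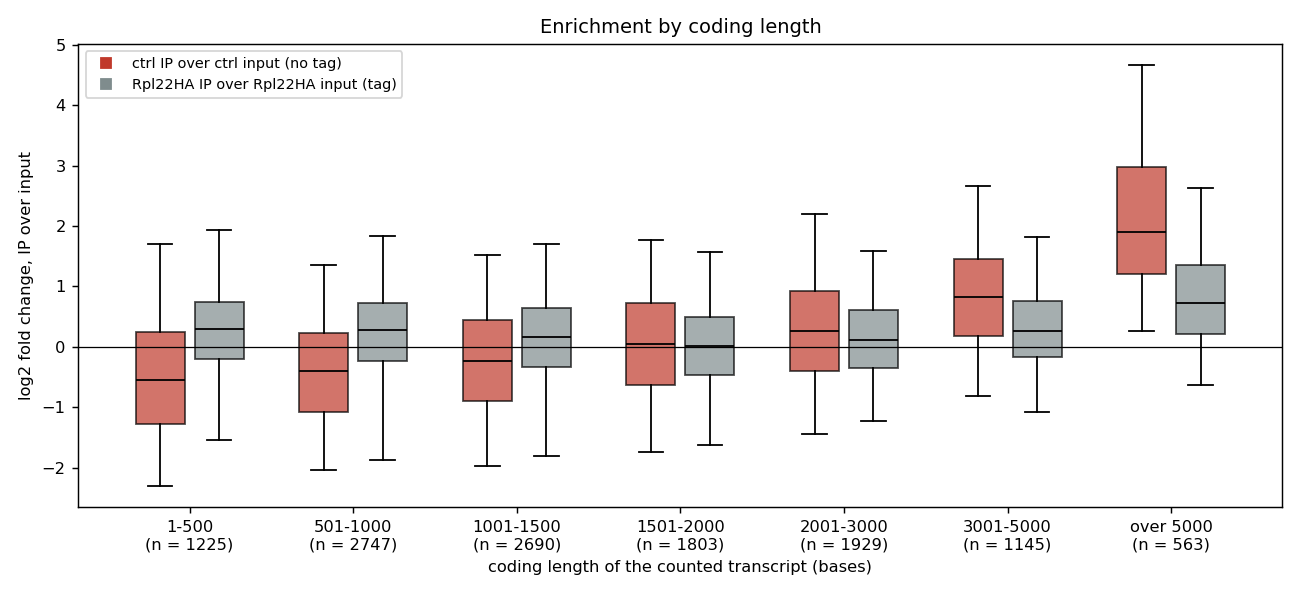
Log2 fold change of IP over input for protein-coding genes in 7 bins of coding length, ctrl in red to the left of Rpl22HA in grey. Boxes show the quartiles with the median, whiskers the 5th and 95th percentiles, and the ctrl medians climb over the bins to 1.91, against 0.72 for Rpl22HA in the longest bin.

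Giant proteins of the cytoskeleton, chromatin and ubiquitin system had the highest median of the lists, 3.32. Of 39 tested members of a list of 40, 34 were higher and none lower. Their median coding length was 13134 bases. Of all 563 coding genes with 5001 or more coding bases, 77.8% were higher and 0.533% lower. Of the 39, 34 lay above and 5 below the median of genes of like coding length (median deviation 1.41). The longest bin has no upper limit, so whether the list differs beyond length was not tested. Macf1, a linker of actin and microtubules, had 956 and 1195 CPM in the ctrl IPs, against 38.9 and 33.1 CPM in the ctrl inputs (4.92 ± 0.26, adjusted p = 2.5e-10). Ank2, an ankyrin that ties membrane proteins to spectrin, had 901 and 1176 CPM in the ctrl IPs, against 31.1 and 27.6 CPM in the ctrl inputs (5.16 ± 0.24). Sptbn1, a β-spectrin, had 1787 and 2146 CPM in the ctrl IPs, against 93.7 and 76.1 CPM in the ctrl inputs (4.55 ± 0.19). Their IP levels were all more than 10 times the highest input level.

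Within this list the effect was not even. Syne2 (4.90) and Dst (4.53), which connect nuclei and filaments, the ryanodine receptors Ryr3 (4.66) and Ryr2 (4.38), and the presynaptic scaffolds Pclo (3.81) and Bsn (3.23) stood high. Dync1h1, the dynein heavy chain, was at 2.72 and Map2, a dendritic microtubule protein, at 1.09 (0.71, not called, without ctrl IP replicate 2). Kif1a (0.97), Kif1b (0.83), Map1a (0.78), Kif5c (0.55) and Map1b (−0.33), proteins of axonal transport and microtubules, were not called, though Kif1a was without ctrl IP replicate 1 (1.05).

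Several named families of coding genes lay above the share of all coding genes. These families were picked by symbol after values had been seen and carry no test. Zinc finger genes with a Zfp symbol were higher in 117 of 342 (34.2%) and lower in 9, against the 18.6% and 16.5% of all coding genes, with a median of 0.72. Histone methyltransferases (Kmt2 and Setd symbols) were higher in 8 of 13, Chd remodellers in 6 of 9, Kdm demethylases in 7 of 16, Myo motors in 11 of 17, kinesins in 12 of 26 and Usp deubiquitinases in 15 of 43. Their median transcript lengths were 7411, 9085, 6149, 6745, 6163.5 and 4738 bases in that order, and 3459.5 for Zfp genes. Of all coding genes, 14.7% were higher at 3001 to 4000 bases and 22.1% at 4001 to 6000. The share was 38.5% at 6001 to 8000 bases and 56.9% over 8000. Whether the families differ beyond length was not tested. The kinesin count was 3 (of 14 tested) at its lowest and 14 at its highest over the alternatives tried.

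Splicing factors and other nuclear RNA-binding proteins were higher in 16 of 30 and lower in 1 (median 1.63). Their median coding length was 1230 bases, and 19 of the 24 with a coding transcript lay above the median of genes of like coding length. Rbm25, a splicing regulator, had 121 and 124 CPM in the ctrl IPs, against 14.3 and 16.4 CPM in the ctrl inputs (2.97 ± 0.18, adjusted p = 1.4e-09). Srrm1, a serine and arginine rich splicing coactivator, had 188 and 351 CPM in the ctrl IPs, against 21.7 and 20.5 CPM in the ctrl inputs (3.68 ± 0.28). The kinases Clk1 (3.11) and Clk4 (2.48), which phosphorylate splicing factors, and the factors Srsf5 (2.51), Srsf2 (2.16) and Srsf6 (2.04) were also higher.

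The transcript that stood for a gene decided some of these calls. Hnrnpu, a nuclear matrix RNA-binding protein, was at 3.76 ± 0.24 through a noncoding transcript form, and at 0.14 with its coding transcript. Hnrnpk, which binds C-rich RNA, was lower (−1.19). In 3855 genes with both a tested retained-intron transcript and a tested coding transcript, the retained-intron form had the higher log2 fold change in 2515 (65.2%), with a median difference of 0.13. In 220 of the 1710 pairs with a mean count of at least 50 in both, that difference was over 1, and in 29 it was under −1. The 2 forms share exons, so a read can count for both. The retained-intron form of Pcp2, a bipolar cell gene, had 71.6 and 86.8 CPM in the ctrl IPs, and its coding form had 70.5 and 86.1 CPM there.

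Short housekeeping mRNAs were on the other side. Nuclear genes of oxidative phosphorylation were lower in 32 of 40 and higher in none, with a median of −1.40, and all 38 with a coding transcript lay below the median of genes of like coding length. Cox6a1 had 18.9 and 21.7 CPM in the ctrl IPs, against 159.5 and 170 CPM in the ctrl inputs (−3.02 ± 0.17, adjusted p = 5.19e-10). Cox5a, another subunit of the same oxidase, had 21.2 and 21.3 CPM in the ctrl IPs, against 153 and 122 CPM in the ctrl inputs (−2.68 ± 0.18). Ndufb8 (−2.37) and Ndufa4 (−2.35) were lower to a like extent, and the smallest change on the list was Ndufv1 at −0.62 with no call. Subunits of the vacuolar proton pump (14 of 16 lower), tubulins (8 of 12) and proteasome subunits (15 of 36), picked by symbol after values had been seen, lay on the same side.

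The mRNAs of ribosomal proteins were less depleted. Of 79 cytosolic ribosomal protein genes 21 were lower and 4 higher, with a median of −0.58, and the count lower was 12 without ctrl input replicate 1 and 32 without ctrl input replicate 2. Of the 67 with a coding transcript, 41 lay below and 26 above the median of genes of like coding length, with a median deviation of −0.19. Retained-intron transcripts stood for 11 of the 79, and with coding transcripts 1 was higher. Rplp2, of the ribosomal stalk, had 9.17 and 9.44 CPM in the ctrl IPs, against 63.4 and 47.8 CPM in the ctrl inputs (−2.55 ± 0.19). Rpl14, of the large subunit, had 324 and 452 CPM in the ctrl IPs, against 71.6 and 71.8 CPM in the ctrl inputs (2.44 ± 0.21), and stayed higher in all 14 alternatives tried. Ribosomal protein genes have many processed copies, so counts on them can be shared with pseudogenes. Rpl22, the protein tagged in the Rpl22HA mice, was at −0.47 with no call. Of 21 translation factors 5 were lower, led by Eef1a2 (−2.85) and Eif5a (−1.65), and 1 was higher, Eif4g1 (1.11). The count of lower factors was 3 without ctrl input replicate 2.

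The lists of secreted peptides, endoplasmic reticulum residents and chaperones were mainly lower. Membrane transporters with an Slc symbol (38 of 205 higher, 37 lower) and Tmem genes (17 of 182 higher, 36 lower), picked by symbol after values had been seen, lay nearer to all coding genes. Neuropeptides and granins, which enter the secretory pathway, were lower in 15 of 16 with a median of −2.75, the lowest of the lists, and all 16 lay below the median of genes of like coding length. Chga had 14.05 and 9.37 CPM in the ctrl IPs, against 104 and 97.1 CPM in the ctrl inputs (−3.11 ± 0.21, adjusted p = 2.86e-09). Chgb (−2.78), Scg3 (−2.78), Scg2 (−2.73) and Penk (−3.60), the enkephalin precursor, were lower too. Gal, the galanin precursor, had no count in either ctrl IP and 15 in the ctrl inputs together, at least 13.7-fold lower.

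Proteins that reside in the endoplasmic reticulum followed, with 16 of 22 lower and none higher (median −1.44). Rpn1, of the oligosaccharyltransferase, had 19.5 and 18.9 CPM in the ctrl IPs, against 79.0 and 86.3 CPM in the ctrl inputs (−2.11 ± 0.17). Sec61b, of the translocon, was at −2.12, the folding enzyme Pdia3 at −2.01 and the chaperone Canx at −1.76. Heat shock genes were lower in 9 of 12 (median −1.31), among them Hsp90ab1 (−1.75) and Hsp90aa1 (−1.47). Both are cytosolic chaperones. Immediate early genes, by comparison, had 1 lower, Junb (−1.16), and 1 higher, Npas4 (2.07), of 10. Without ctrl input replicate 2 the counts were 3 lower and 0 higher, and Npas4 lost its call there (adjusted p = 0.153) and with DESeq2 (0.0508). Junb lost its call without ctrl IP replicate 2 (adjusted p = 0.0576) or ctrl input replicate 1 (adjusted p = 0.102). Of 10 tested replication-dependent histone genes 4 were higher and 3 lower, with 1 to 4 called higher over the alternatives tried. Without ctrl IP replicate 1, 2 were higher and 2 lower, without ctrl input replicate 1, 4 and 1, and without ctrl input replicate 2, 2 and 3.

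**Figure D4:**
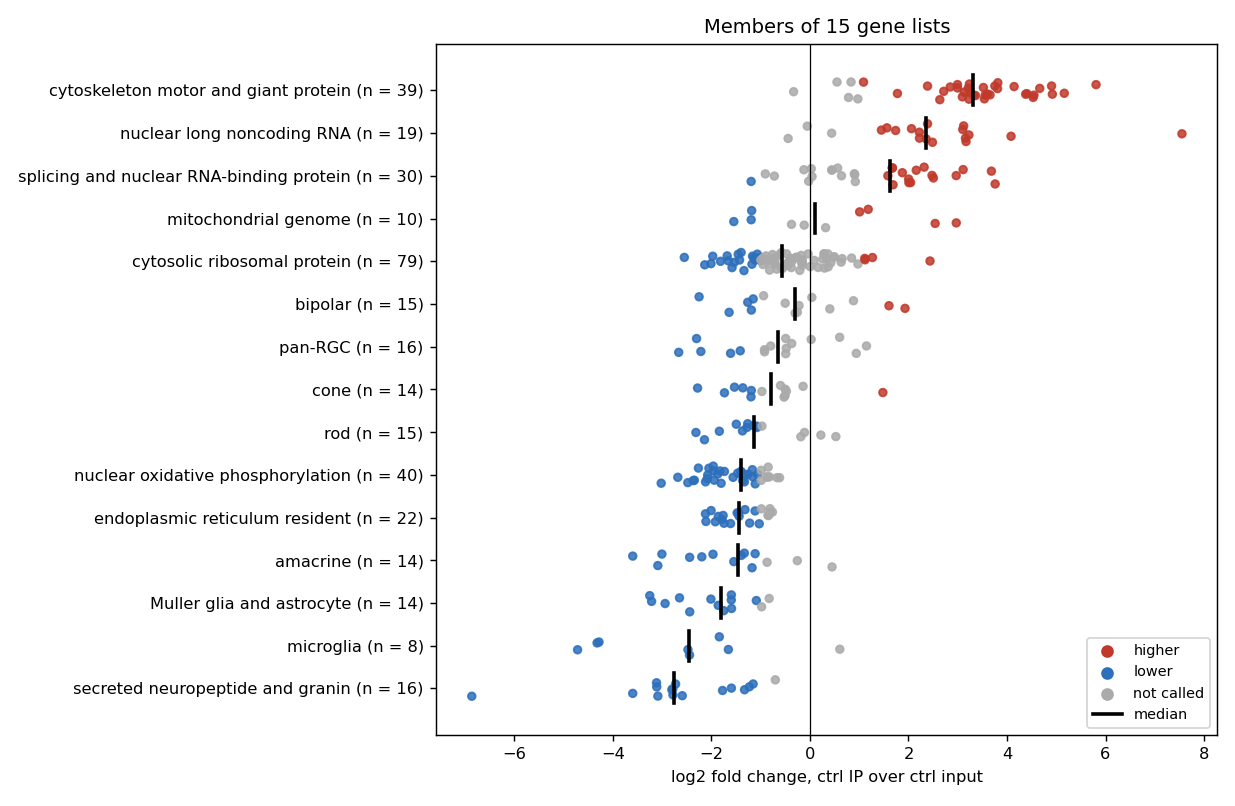
Log2 fold change of ctrl IP over ctrl input for each tested member of 15 gene lists, red where called higher, blue where called lower and grey where not called, with a bar at the median. Medians span 3.32 for giant proteins to −2.75 for neuropeptides and granins.

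Genes that mark retinal cell types were lower or not called with few exceptions, and the lists differed in degree. In whole-retina RNA, fewer cells of a type and less RNA per cell cannot be told apart, while each IP and its input came from the same lysate. Rod genes were lower in 10 of 15 and higher in none (median −1.14). Gnat1, rod transducin, had 1523 and 1563 CPM in the ctrl IPs, against 6468 and 8883 CPM in the ctrl inputs (−2.31 ± 0.19, adjusted p = 2.99e-08). The groups were far apart. Cngb1 (0.22) and Slc24a1 (0.53), whose coding parts are the longest of the list, were not called.

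Cone genes were lower in 6 of 14 and higher in 1 (median −0.79). Opn1mw, the middle-wavelength cone opsin, had 25.6 and 29.5 CPM in the ctrl IPs, against 84.3 and 98.4 CPM in the ctrl inputs (−1.74 ± 0.17). Pde6h, the cone phosphodiesterase inhibitor, was at −2.28 and Opn1sw, the short-wavelength opsin, at −1.53. Arr3, cone arrestin, was the member that rose (1.48), represented by a retained-intron transcript with 156 and 124 CPM in the ctrl IPs, against 45.4 and 53.9 CPM in the ctrl inputs. Its coding transcript was also higher (1.08, adjusted p = 0.000433, edgeR).

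Bipolar cell genes were lower in 5 of 15 and higher in 2 (median −0.30), and without ctrl input replicate 2 the counts were 3 lower and 3 higher. Gng13, a G protein γ subunit, was lowest (−2.25). Gpr179 and Trpm1, the orphan receptor and the cation channel of ON bipolar cells, were higher. Gpr179 had 135 and 130 CPM in the ctrl IPs, against 34.4 and 35.2 CPM in the ctrl inputs (1.93 ± 0.30, adjusted p = 4.66e-05), and Trpm1 had 142 and 115.5 CPM in the ctrl IPs, against 42.1 and 42.6 CPM in the ctrl inputs (1.60 ± 0.25). Their coding parts, 6879 and 4866 bases, are long for the list, whose median is 1086.

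Amacrine cell genes were lower in 11 of 14 (median −1.47). Slc6a9, the glycine transporter, had 36.8 and 34.3 CPM in the ctrl IPs, against 94.5 and 112 CPM in the ctrl inputs (−1.55 ± 0.16, adjusted p = 4.75e-07). Tfap2b, an amacrine transcription factor, had 26.95 and 26.6 CPM in the ctrl IPs, against 43.8 and 52.85 CPM in the ctrl inputs, and at −0.87 ± 0.17 did not reach a 2-fold change (adjusted p = 0.000505). Npy (−3.09) and C1ql2 (−2.44) were lower, and Pax6 was at 0.45 with no call. Of 6 horizontal cell genes 1 was lower, Sept4 (−1.23).

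Müller glia and astrocyte genes had the lowest median of the neuron and macroglia lists, with 12 of 14 lower, none higher and a median of −1.81. All 14 lay below the median of genes of like coding length (median deviation −1.64). So did all 12 rod and all 11 cone genes with a coding transcript (−0.90 and −0.86) and 13 of 14 amacrine genes (−1.47). Of bipolar genes 10 of 14 did, and of ganglion cell genes 11 of 16. Apoe, a lipid carrier, had 128.5 and 111 CPM in the ctrl IPs, against 859 and 642.5 CPM in the ctrl inputs (−2.65 ± 0.18, adjusted p = 2.86e-09). Dkk3, a secreted Wnt modulator, had 72.4 and 57.9 CPM in the ctrl IPs, against 514 and 486 CPM in the ctrl inputs (−2.94 ± 0.17). Glul, glutamine synthetase, was at −2.44, and the transcription factors Sox9 (−1.59) and Sox2 (−1.09, and −0.97 with no call without ctrl input replicate 1) were lower by less.

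Sparse cell types gave less certain counts. Microglial genes were lower in 7 of 8 (median −2.46), and the other was not called (0.61). At a mean count of at least 50 only 1 member was tested, at 0.50 with no call. Summed over the list, levels were 19.6 and 23.1 CPM in the ctrl IPs, against 30.7 and 33.9 CPM in the ctrl inputs. The lower genes rested on few counts: Ctss, a lysosomal protease, had 5 and 2 counts in the ctrl IPs, against 14 and 46 in the ctrl inputs (−4.28 ± 0.51). The count lower was 3 without ctrl input replicate 2. Vascular genes were lower in 4 of 9, among them Cldn5 (−1.98), the tight junction claudin of endothelium, and pigment epithelium genes in 4 of 8, which became 1 without ctrl input replicate 2. Genes of the lens list, crystallins and Bfsp1 among them, were lower in 4 of 6 (median −1.77). The median was 0.16 without ctrl input replicate 1 and −1.05 without ctrl IP replicate 2. Cryab (−1.77) kept its call in all 14 alternatives tried. Whether these RNAs came from the lens or from the retina was not tested. Cryaa, a lens crystallin, had 169 and 30 counts in the ctrl IPs, against 184 and 60 in the ctrl inputs, and was high in both libraries numbered 1. None of the 4 tested blood genes was called, and 2 were lower without ctrl IP replicate 2, the globins Hbb-bs (−1.51, adjusted p = 0.000546) and Hbb-bt (−2.84, adjusted p = 0.0215). Of 7 B cell and plasma cell genes only Jchain passed the filter and was higher (1.76).

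Ganglion cell genes, the targets of the tagged IP, were not called higher in the untagged IP. Of 16 genes shared by ganglion cells 5 were lower and none higher (median −0.65). Tubb3, a neuronal tubulin, had 10.1 and 8.18 CPM in the ctrl IPs, against 47.0 and 66.2 CPM in the ctrl inputs (−2.66 ± 0.21), and Thy1 (−2.30) and Sncg (−2.21) were lower alike. The neurofilaments Nefh (0.94) and Nefl (0.60) and the transcription factor Pou4f2 (1.15) were not called. With the replicate number as a block, or without ctrl IP replicate 1, 2 of the 16 were called higher, Pou4f2 (1.32 with the block) and Nefh (1.03 with the block). Nefh was also called without ctrl input replicate 2 (1.35).

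Of 12 ipRGC genes 1 was higher and 1 lower (median −0.24). Opn4, melanopsin, had 14 and 82 counts in the ctrl IPs, against 2 and 14 in the ctrl inputs, or 1.34 and 5.78 CPM, against 0.818 and 1.80 CPM. The groups overlapped and Opn4 was not called (1.27 ± 0.57, adjusted p = 0.0710). It was called with the replicate number as a block (1.55, adjusted p = 0.00271), and it was at −0.26 without ctrl IP replicate 2 and 1.89 (called) without ctrl IP replicate 1. Nmb, a neuropeptide, was the gene called higher, on 8 and 24 counts in the ctrl IPs, against 0 and 3 in the ctrl inputs, a ratio of 4.43 (95% counting interval 1.39 to 22.6), and it lost the call in 7 alternatives. Eomes, a transcription factor, was lower on 10 and 18 counts, against 5 and 22 (−1.19), and lost the call in 3.

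The Rpl22HA comparison, which shares no library with the ctrl comparison, was set beside it. In Rpl22HA IP over Rpl22HA input 2031 genes were higher (14.4%) and 993 lower (7.05%). Of the 3041 genes higher in ctrl IP, 640 (21%) were also higher in Rpl22HA IP, which is 31.5% of the 2031. The medians of the 3041 genes were 1.82 in ctrl and 0.50 in Rpl22HA, and 2410 of them were above 0 in Rpl22HA. Of the 2177 genes lower in ctrl IP, 312 were higher and 397 lower in Rpl22HA IP. The ctrl choice of these genes fixes part of the gap between the 2 medians.

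The difference of the 2 enrichments was tested directly in the same edgeR fit. It was above 0 for 2908 genes (20.6%) and below 0 for 3366 (23.9%) at an adjusted p under 0.05. Genotype and the Y-linked counts changed together between the 2 comparisons and cannot be told apart. For Mmp9 the enrichment was 7.80 in ctrl and 4.93 in Rpl22HA, a difference of 2.87 ± 0.41 (adjusted p = 4.11e-05). Kmt2a, Zfp638 and Ylpm1 were likewise enriched in both, with differences of 2.28, 2.96 and 2.97. These genes and Mmp9 were chosen by their ctrl values, which the difference uses again, so the choice favours a difference above 0. Giant proteins, higher in 34 of 39 in ctrl IP with a median of 3.32, were higher in 33 of 39 in Rpl22HA IP with a median of 1.72.

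Cone and ganglion cell genes differed between the IPs. The study's methods give ipRGCs and a few cones as the main cells that carried the HA tag. Cone genes had a median of −0.79 in ctrl and 3.03 in Rpl22HA, where 13 of 14 were higher, and all 14 differed below 0. Opn1mw stood at −1.74 in ctrl and 3.38 in Rpl22HA, a difference of −5.11 (adjusted p = 7.16e-10). Ganglion cell genes were higher in 13 of 16 in Rpl22HA IP (median 2.46), Tubb3 with a difference of −5.25. Opn4 was at 1.27 in ctrl and 4.71 in Rpl22HA, a difference of −3.44 (adjusted p = 0.00372).

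Rod and glial genes were mostly lower in both, though many differed in degree. Of 15 rod genes the difference was above 0 in 6 and below 0 in 0. Gnat1 was at −2.31 in ctrl and −2.30 in Rpl22HA (difference −0.016 ± 0.25, adjusted p = 0.969), and Rlbp1 at −3.22 and −3.96 (difference 0.74). Müller glia and astrocyte genes had medians of −1.81 in ctrl and −2.85 in Rpl22HA. Of these 14 genes the difference was above 0 in 11 and below 0 in 2, Clu (−2.09) among the latter. Nuclear long noncoding RNAs, at a median of 2.36 in ctrl, had a median of 0.32 in Rpl22HA, with 3 of 19 higher. Oxidative phosphorylation genes were at −1.40 in ctrl and 0.66 in Rpl22HA. For Slc6a9 the depletion was smaller in ctrl (−1.55) than in Rpl22HA (−2.80), a difference of 1.25 ± 0.22 (adjusted p = 0.00031), and the same held for Tfap2b (difference 1.44).

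**Figure D5:**
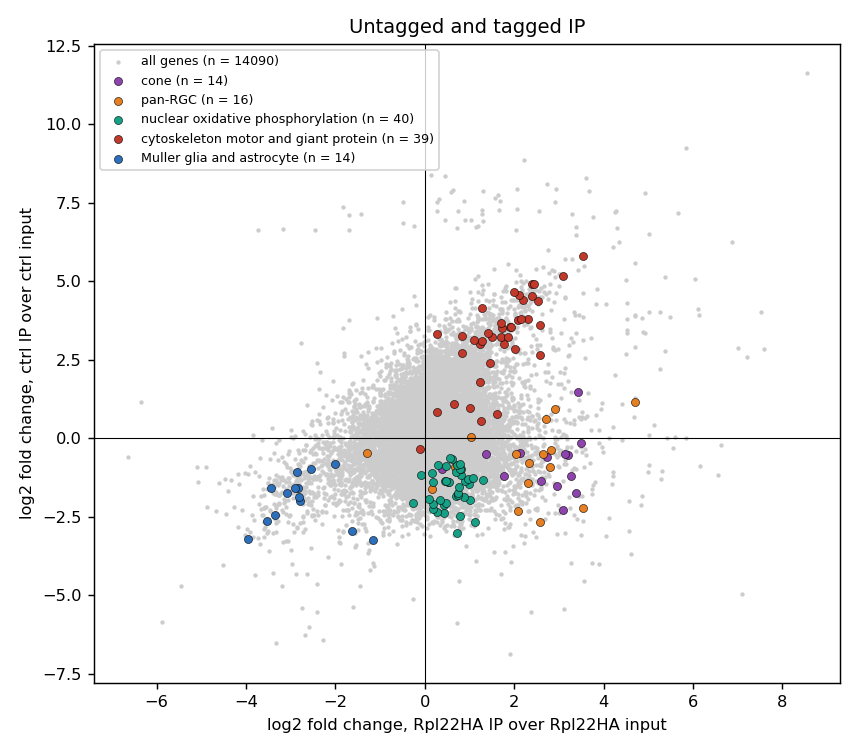
Log2 fold change of ctrl IP over ctrl input (vertical) against that of Rpl22HA IP over Rpl22HA input (horizontal) for 14090 genes, with 5 lists in colour. Giant proteins lie up and to the right, Müller glia genes down and to the left, and cone, ganglion cell and oxidative phosphorylation genes mostly to the right and below 0.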

How the data were processed

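Libraries were made with Smart-seq3 from IP and input RNA and sequenced as paired reads of 37 bases. The authors aligned them to mm10 with the Smart-seq3 pipeline and deposited raw counts per Ensembl transcript. Annotation release, strand and the treatment of shared reads: not given in the sources used here. A second count table, of other genotypes, was not used. Of 117860 transcripts (17 repeated rows dropped), 116773 were matched to GENCODE M21. All 8 libraries of the table were fitted by group with edgeR 4.0.16 (R 4.3.3) after filterByExpr and TMM scaling, leaving 45189 transcripts and 4 residual degrees of freedom, with Benjamini-Hochberg adjustment over every transcript tested. A gene was called at an adjusted p under 0.05 and a fold change over 2. The script was tested on simulated counts.

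The text names the 10 called genes per direction with the largest change, no overlap and a mean count of at least 50, all nuclear long noncoding RNAs tested, up to 4 members of each other list with the smallest p, and Opn4, Slc6a9 and Tfap2b. Other list members are named as examples chosen after their values were seen. The members and lists were chosen with earlier results of these data known. Counting intervals (95%, exact binomial on summed counts) and the floor of 3 counts cover counting error only. IP and input with the same number came from the same lysate, so the numbers pair the libraries, and the deviations of IP and input correlated at 0.119 over 9604 genes. With 2 libraries per group, each of 1 animal by the methods but pooled by the labels, p-values rest on a spread shared by all 4 groups. Alternatives were DESeq2 1.42.0, other scalings and filters, thinning, a replicate block, the ctrl libraries alone, 1 transcript per gene and leaving out each library. Using the coding transcript for each gene was chosen after seeing the data. Some members of the lists are counted but not reported here by name.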

Additional observations from a re-analysis of the deposited data

Results flagged for a closer look

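No group held 4 or more libraries, so none was tested for outlying libraries. Differences between the ctrl and the Rpl22HA enrichment (log2, ctrl minus Rpl22HA, edgeR interaction test) passed an adjusted p of 0.05 in 2908 genes above 0 and 3366 below 0. Of the 23 leading and study-named genes 18 differed. The leading genes were chosen by their large ctrl changes, which the difference uses again, so the choice favours a difference and the count is no independent test. Above 0 were Gm37941 (3.11), Ylpm1 (2.97), Zfp638 (2.96), Mmp9 (2.87), Atrx (2.42), Kmt2a (2.28), Etl4 (1.88), Tfap2b (1.44), Slc6a9 (1.25) and Rlbp1 (0.74). Below 0 were Mgst3 (−5.65), Tubb4a (−4.33), Cox6a1 (−3.74), Opn4 (−3.44), Chga (−3.22), Marcksl1 (−2.68), Clu (−2.09) and Gm20425 (−1.24). Among the 119 other named genes the difference was above 0 in 41 and below 0 in 38. List members picked by the smallest ctrl p carry the same limit.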

How the results depend on the processing

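Over 14 alternatives, the count of genes higher in ctrl IP lay within 1.5 times 3041 except at a mean count of at least 50, where 9604 genes were tested and 1920 were higher, all among the 3041. The count lower stayed within 1.5 times 2177 in every alternative. Leaving out 1 library gave 2467 to 3154 genes higher and 1703 to 2379 lower, 313 to 624 long noncoding genes higher, and 1983 to 3779 genes with a difference above 0. Long noncoding genes higher numbered 221 at a mean count of at least 50 and 269 after thinning, where fewer genes were tested, and genes with a difference from Rpl22HA above 0 numbered 1867 after thinning. With the replicate block 3073 genes were higher and 2203 lower, 2974 and 2130 of them shared with the fit without it, and among list members the block ended the calls of mt-Nd1, mt-Rnr1 (−0.89), Hist2h2be (0.96) and Rpl38 (−0.98), added calls for Opn4 (1.55), Pou4f2, Nefh and Crybb2 (−1.80), and changed no other. DESeq2 gave 2544 higher and 2136 lower. Median shifts of all genes under other scalings were −0.06 to 0.04. Of 1948 values of the genes named by rule, under alternatives, 1871 kept direction and side of the threshold. Directions turned after thinning for Eomes (0.036) and Hba-a1 (0.22), with DESeq2 for Eif2s3y (−0.091) and Uty (−0.083), and with the coding transcript for Hist1h2be (−0.23). They also turned when 1 library was left out: Cryaa ranged between −4.03 and 0.18 and Crygs between −2.98 and 0.14 (positive without ctrl input replicate 1), Alas2 between −0.051 and 6.48 and Opn4 between −0.26 and 2.17 (negative without ctrl IP replicate 2), and Hba-a1 between −0.70 and 0.58, Malat1 between −0.069 and 1.23, Sox2ot between −0.25 and 0.45 and Rpph1 between −1.29 and 1.07 (each turned without ctrl input replicate 2, Rpph1 also, at 0.057, without ctrl IP replicate 1). An arm left with 1 sample is assumed to vary like the other groups, and the cause of these changes was not tested.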
